A study of Homo sapiens with 3 samples.

Results

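The 47 genes described here encode components of RAS-MAPK and PI3K-AKT-mTOR signalling. They were chosen by symbol from textbook roles in both pathways, with earlier results of these data known. They were matched through the GENCODE 29 annotation to the 60660 genes of the deposited table. All 47 had a value in every library. The data come from SH-SY5Y, an established human neuroblastoma cell line with the character of sympathetic neuroblasts, grown in medium with serum and without any labelled treatment or genetic change. RNA from 3 separate flasks at about 60% confluency was made into stranded mRNA libraries, which form 1 group with replicates 1, 2 and 3. The line is a single culture model, so the flasks measure the spread of culture and library making, not that between tumours, and every comparison is between genes inside the same libraries. Values are FPKM, fragments scaled to transcript length and to the mapped fragments of the library, so levels of different genes are per length. Errors are SDs over the libraries (n = 3).

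In outline, growth factor receptors recruit adaptors such as GRB2 and SHC, which bring the exchange factor SOS to the membrane, where it loads RAS proteins with GTP. Active RAS starts the RAF-MEK-ERK kinase relay, and GTPase activators, Sprouty and SPRED proteins and dual-specificity phosphatases hold it back, several of them being made in response to ERK itself. The same receptors activate PI3K, whose lipid product recruits AKT; AKT restrains the TSC complex, freeing RHEB to switch on mTOR, which controls protein synthesis. In neuroblastoma both routes lie downstream of receptor kinases, and RAS-MAPK genes are known as sites of mutation in relapsed disease.

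The cell line label was checked on marker genes. All 6 noradrenergic neuroblast markers were above 1 FPKM, with summed levels of 1671 to 1726 FPKM per library. None of the 4 leukocyte markers and none of the 3 endothelial markers was above, and CD3E and CDH5 were listed at 0; summed levels were 0.413 to 0.789 and 0.012 to 0.094 FPKM. None of the 3 epithelial markers was above (1.56 to 3.06 FPKM in sum), while all 3 fibroblast markers were (19.9 to 25.8 FPKM in sum), DCN being the highest at 14.7 ± 2.14 FPKM. Whether the fibroblast genes bear on the values below was not tested. Depth, read from the even steps of low FPKM values, was about 21550000, 28550000 and 43550000 reads in replicates 1, 2 and 3. On that estimate 3 reads on 1 kb of effective transcript correspond to 0.139, 0.105 and 0.0689 FPKM, a floor for counting error only.

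Nearly the whole set was expressed well above a level of 1 FPKM. By limma's moderated test on log2(FPKM + 0.1), with Benjamini-Hochberg adjustment over all 31736 genes tested, 45 of 47 members were above 1 FPKM, PLCG2 was below and DUSP5 was neither. In the same fit 45.5% of all genes tested were called above and 43.7% below; among protein-coding genes tested the shares were 70.6% and 24.6%. The members' median level was 22.6 FPKM, against 9.13 FPKM for the 16750 protein-coding genes and 1.08 FPKM for all genes tested. At a level of 5 FPKM 41 members were called above, against a background of 32.9% of all genes and 56.6% of protein-coding genes, and SPRY1, DUSP5 and PLCG2 were called below (60.1% and 37.4%). RRAS, PIK3CD and RICTOR were neither at that level. The highest levels, over 100 FPKM, belonged to 6 genes, which in falling order were SHC1, MAP2K2, PLCG1, RHEB, AKT1 and GRB2; 32 members lay between 10 and 100 FPKM and 9 under 10.

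**Figure D1:**
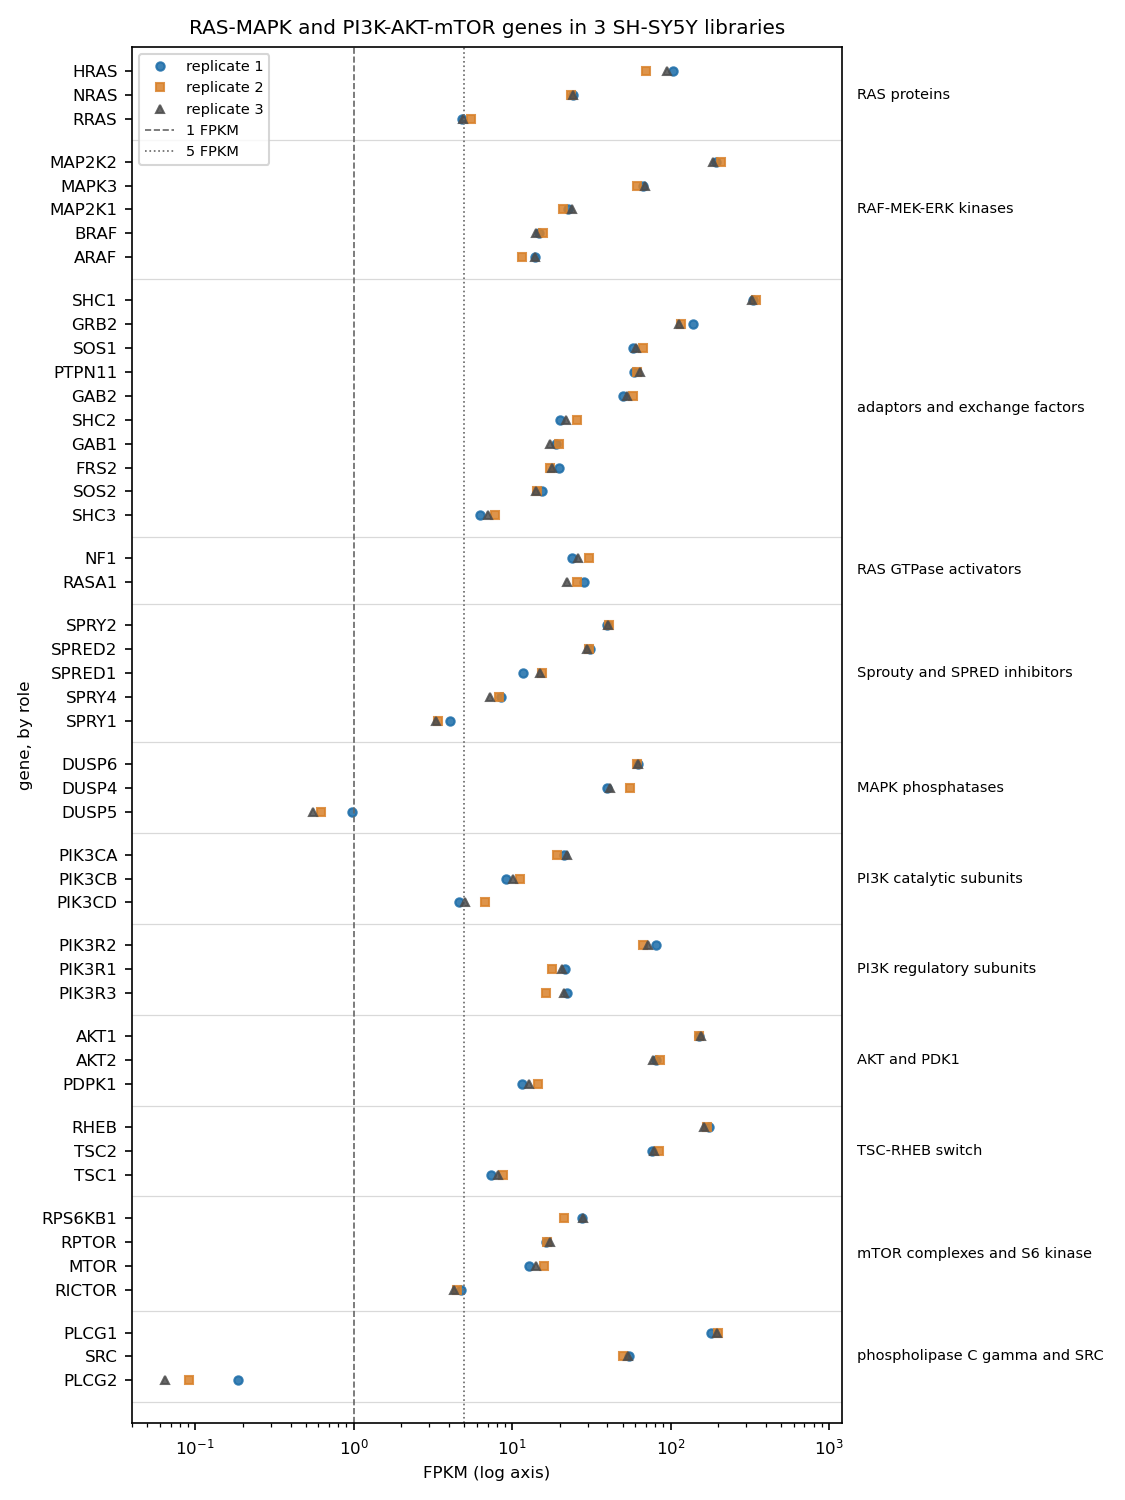
FPKM of each of the 47 genes in replicates 1, 2 and 3 (log axis), grouped by role, with lines at 1 and 5 FPKM. PLCG2 lies below 1 FPKM in every library, DUSP5 also lies below it, and the points of most other genes nearly coincide across flasks.

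Among the 3 RAS GTPase genes of the set, the membrane switches of the pathway, HRAS was the most abundant. HRAS (chromosome 11, 532242 to 537287, GRCh38) stood at 104, 69.9 and 94.4 FPKM in replicates 1, 2 and 3, a mean of 89.3 ± 17.4. NRAS (chromosome 1, 114704469 to 114716894), the RAS gene known for mutations in neuroblastoma and melanoma, stood at 24.3, 23.4 and 24.2 FPKM. RRAS, a relative linked to integrin signalling, stood at 4.83, 5.52 and 4.87 FPKM. The values of the 3 genes did not overlap in any library, and HRAS varied most, with its low value in replicate 2. Within libraries NRAS minus HRAS was -1.87 ± 0.27 and NRAS minus RRAS 2.22 ± 0.14 on the log2(FPKM + 0.1) scale, each with 1 sign in 3 of 3 libraries.

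In the kinase relay MAP2K2 was the most abundant member, far above its partner MAP2K1. The MEK2 gene MAP2K2 was listed at 193, 208 and 185 FPKM and the MEK1 gene MAP2K1 at 22.4, 21.1 and 23.7 FPKM. MAP2K2 thus held 89.7% ± 1.07 of the summed MEK FPKM, and MAP2K2 minus MAP2K1 was 3.12 ± 0.17 (log2 scale) with 1 sign in 3 of 3 libraries. BRAF, the RAF kinase most often mutated in cancer, stood at 14.8, 15.6 and 14.1 FPKM, and ARAF, its X-linked relative, at 13.9, 11.5 and 13.9 FPKM. ARAF was lower than BRAF in every library, but the difference of -0.18 ± 0.22 was smaller than its spread. The ERK1 gene MAPK3 stood at 67.1, 61.6 and 69.4 FPKM, which lay above MAP2K1, BRAF and ARAF and below MAP2K2 in every library.

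Adaptors and exchange factors connect receptors to RAS, and the highest gene of the whole set is one of them. SHC1 (chromosome 1, 154962298 to 154974395), the widely expressed SHC adaptor, stood at 333, 345 and 327 FPKM. Its neuronal relatives were far lower, with SHC2 at 20.0, 25.7 and 22.0 FPKM and SHC3 at 6.26, 7.77 and 7.02 FPKM. The 3 SHC genes kept the same order in every library, and SHC1 held 91.9% ± 0.775 of their sum. SHC1 minus SHC2 was 3.90 ± 0.16, SHC1 minus SHC3 5.56 ± 0.13 and SHC2 minus SHC3 1.67 ± 0.04 (log2 scale). GRB2, the adaptor that carries SOS to receptors, reached 139, 116 and 114 FPKM.

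Of the RAS exchange factors, SOS1 exceeded SOS2. SOS1 was listed at 57.9, 66.6 and 60.6 FPKM and SOS2 at 15.3, 14.4 and 14.1 FPKM, a difference of 2.07 ± 0.15 (log2 scale) that gave SOS1 80.8% ± 1.59 of the sum. Genes of docking proteins followed the same pattern of 1 dominant gene. GAB2 stood at 50.4, 57.9 and 52.8 FPKM and GAB1 at 18.9, 19.7 and 17.4 FPKM, and GAB1 minus GAB2 was -1.52 ± 0.10. FRS2, the docking protein of fibroblast growth factor and neurotrophin receptors, stood at 18.4 ± 1.33 FPKM. PTPN11, which encodes the phosphatase SHP2 that aids RAS activation, stood at 61.6 ± 2.3 FPKM.

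The genes of the GTPase activators that switch RAS off were level with each other. NF1 (neurofibromin, lost in neurofibromatosis) stood at 23.8, 30.6 and 26.1 FPKM and RASA1 at 28.6, 25.5 and 22.2 FPKM. RASA1 was the higher gene in replicate 1 and NF1 in replicates 2 and 3, and their difference of 0.08 ± 0.29 (log2 scale, exact sign-flip p = 1) was smaller than its spread. The genes of Sprouty and SPRED proteins, inhibitors of receptor-driven RAS and RAF activation, were at unequal levels. SPRY2 stood at 39.6, 40.6 and 40.0 FPKM, SPRY4 at 8.57, 8.3 and 7.28 FPKM, and SPRY1 at 4.08, 3.42 and 3.29 FPKM. SPRY2 held 77.5% ± 1.67 of the 3 genes' sum, with SPRY1 minus SPRY2 at -3.45 ± 0.17 and SPRY2 minus SPRY4 at 2.30 ± 0.13. SPRED2, at 31.2, 30.4 and 29.7 FPKM, exceeded SPRED1, at 11.7, 15.5 and 15.0 FPKM, and SPRED1 minus SPRED2 was -1.12 ± 0.25.

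The MAPK phosphatases held both the steadiest gene of the set and 1 of its 2 lowest. DUSP6 (chromosome 12, 89347232 to 89353271), the cytoplasmic ERK phosphatase, stood at 62.4, 61.0 and 62.2 FPKM. DUSP4, a nuclear MAPK phosphatase, stood at 39.7, 55.7 and 41.4 FPKM, with its high value in replicate 2. DUSP5 (chromosome 10, 110497838 to 110511544), a nuclear ERK phosphatase, was listed at 0.972, 0.622 and 0.556 FPKM. All 3 values of DUSP5 lay under 1 FPKM, yet its log2 distance of -0.46 (SE 0.182) from that level did not pass the test (limma adjusted p = 0.0844). The distance was -0.68 (limma adjusted p = 0.0206) without replicate 1 and -0.88 in TPM (limma adjusted p = 0.0125), both called below. These levels stand for an estimated 20.9, 17.8 and 24.2 reads per kb of effective transcript. DUSP4 minus DUSP6 was -0.46 ± 0.28 and DUSP5 minus DUSP6 -6.28 ± 0.37 (log2 scale), each with 1 sign in 3 of 3 libraries.

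PI3K is a dimer of a catalytic and a regulatory subunit. Among the catalytic genes PIK3CA (alpha, the isoform often mutated in carcinomas) stood at 21.2, 19.3 and 22.2 FPKM, PIK3CB (beta) at 9.21, 11.2 and 10.2 FPKM, and PIK3CD (delta, best known from leukocytes) at 4.6, 6.76 and 5.01 FPKM. The order alpha, beta, delta held in each library. Shares of the sum were 57.3% ± 4.75, 27.9% ± 1.96 and 14.9% ± 2.81, and within libraries PIK3CA minus PIK3CB was 1.03 ± 0.22 and PIK3CB minus PIK3CD 0.91 ± 0.16 (log2 scale). PIK3CA minus PIK3CD was 1.94 ± 0.38.

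The regulatory genes were led by PIK3R2, the beta subunit, rather than by PIK3R1, the alpha subunit. PIK3R2 was listed at 81.2, 67.1 and 71.8 FPKM, PIK3R1 at 21.5, 17.8 and 20.7 FPKM and PIK3R3, the gamma subunit, at 22.4, 16.4 and 21.2 FPKM. PIK3R1 and PIK3R3 could not be separated, with a difference of -0.01 ± 0.09 (log2 scale, PIK3R3 minus PIK3R1, exact sign-flip p = 1), and all 3 genes had their lowest value in replicate 2. PIK3R2 held 64.8% ± 1.53 of the sum; PIK3R1 minus PIK3R2 was -1.87 ± 0.07 and PIK3R3 minus PIK3R2 -1.88 ± 0.13. Summed regulatory FPKM was 3.57, 2.72 and 3.04 times summed catalytic FPKM in replicates 1, 2 and 3.

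AKT kinases carry the PI3K signal onward. AKT1 stood at 151, 151 and 156 FPKM and AKT2, the isoform tied to insulin action, at 80.9, 85.8 and 77.3 FPKM, so the genes did not overlap and AKT1 minus AKT2 was 0.91 ± 0.10 (log2 scale). PDPK1, the gene of the kinase PDK1 that phosphorylates AKT, was lower at 11.5, 14.6 and 12.9 FPKM.

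Between AKT and mTOR the genes of the TSC complex subunits were far apart in level. TSC2, the GTPase activator of RHEB, stood at 76.8, 84.8 and 78.6 FPKM, and its partner TSC1, which stabilises it, at 7.36, 8.79 and 8.16 FPKM. TSC2 was the higher in every library by a ratio of means of 9.88, and TSC1 minus TSC2 was -3.29 ± 0.06 (log2 scale). RHEB itself, the small GTPase that activates mTOR, reached 175, 170.1 and 163 FPKM, which was 12.0 ± 1.52 times the FPKM of MTOR.

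Among the genes of the large mTOR complex proteins, MTOR and RPTOR were at moderate levels and RICTOR was lower. MTOR, the kinase, stood at 12.8, 15.8 and 14.2 FPKM, RPTOR, the scaffold of complex 1, at 16.3, 16.6 and 17.4 FPKM, and RICTOR, the scaffold of complex 2, at 4.77, 4.52 and 4.28 FPKM. RPTOR exceeded RICTOR in every library, by 1.87 ± 0.12 (log2 scale). RPS6KB1, the gene of the S6 kinase that complex 1 activates, stood at 27.5, 21.3 and 27.9 FPKM, with its low value in replicate 2.

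Phospholipase C gamma, which receptor kinases activate to raise calcium and diacylglycerol, gave the largest difference among the 26 pairs. PLCG1 (chromosome 20, 41136960 to 41196801) stood at 179, 198 and 195 FPKM, the third highest level of the set. PLCG2 (chromosome 16, 81739097 to 81962693), best known from B cells and other leukocytes, was listed at 0.186, 0.092 and 0.065 FPKM, its log2 distance from 1 FPKM being -2.40 (SE 0.196, limma adjusted p = 0.00124). Its level stands for an estimated 4.01, 2.63 and 2.83 reads per kb of effective transcript. The longest coding transcript of PLCG2 has 8707 bases, so its total reads lie above the 3 reads of the floor. How much of its spread between flasks is counting error was not tested. PLCG1 minus PLCG2 was 9.84 ± 0.48 (log2 scale, pseudocount included). SRC, the kinase that couples receptors and integrins to both pathways, stood at 54.6, 49.8 and 54.1 FPKM.

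For PLCG1 and PLCG2, picked as the pair with the largest difference, the 250 bases before the RefSeq start are printed (GRCh38.p14, plus strand, 5′ to 3′). Every CG dinucleotide is in capitals. The first is chr20:41137293-41137542 and the second chr16:81738791-81739040. The PLCG1 window lies inside the GENCODE gene, which starts at 41136960, and the PLCG2 window lies before its gene.
PLCG1: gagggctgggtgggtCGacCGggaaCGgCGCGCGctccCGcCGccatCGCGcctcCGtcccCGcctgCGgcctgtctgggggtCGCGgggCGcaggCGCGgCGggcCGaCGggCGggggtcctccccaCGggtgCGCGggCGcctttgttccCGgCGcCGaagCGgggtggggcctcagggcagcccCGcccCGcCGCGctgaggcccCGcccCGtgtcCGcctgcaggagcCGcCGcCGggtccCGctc
PLCG2: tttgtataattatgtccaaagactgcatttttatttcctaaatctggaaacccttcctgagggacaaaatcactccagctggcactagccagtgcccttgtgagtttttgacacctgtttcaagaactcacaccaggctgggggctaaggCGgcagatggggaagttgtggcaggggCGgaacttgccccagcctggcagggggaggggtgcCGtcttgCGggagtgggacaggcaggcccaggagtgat
The PLCG1 window held 41 CG dinucleotides and the PLCG2 window 4, the lowest count among the 41 members with a RefSeq window, shared with SHC3. Over those 41 members the median was 22 CG dinucleotides, against 18 in 14830 protein-coding genes, and the median GC content was 66.0% against 62.4%.

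Of the members with the lowest CG counts, PLCG2 and SHC3 (4 each) stood at 0.114 ± 0.0635 and 7.02 ± 0.756 FPKM, and SPRY1 and SOS1 (8 each) at 3.60 ± 0.425 and 61.7 ± 4.42 FPKM. Whether CG count bears on level was not tested. The motif GGGCGG, searched on both strands as were the others, was found in 31 of 41 windows (75.6%) and in 57.0% of the protein-coding windows. CCAAT was in 34.1% against 34.6%, and TATAAA in 1 member, RPTOR (2.44% against 8.94%). CCGGAAGT, the consensus of ETS factors, was in the windows of FRS2, SHC1, TSC2 and PIK3R2 (9.76% against 5.23%), and TGACGTCA in that of NF1 (2.44% against 2.31%). The motifs were counted separately, whether or not they overlapped. DUSP4, DUSP5, GAB1, PTPN11, RRAS and SRC had no entry.

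**Figure D2:**
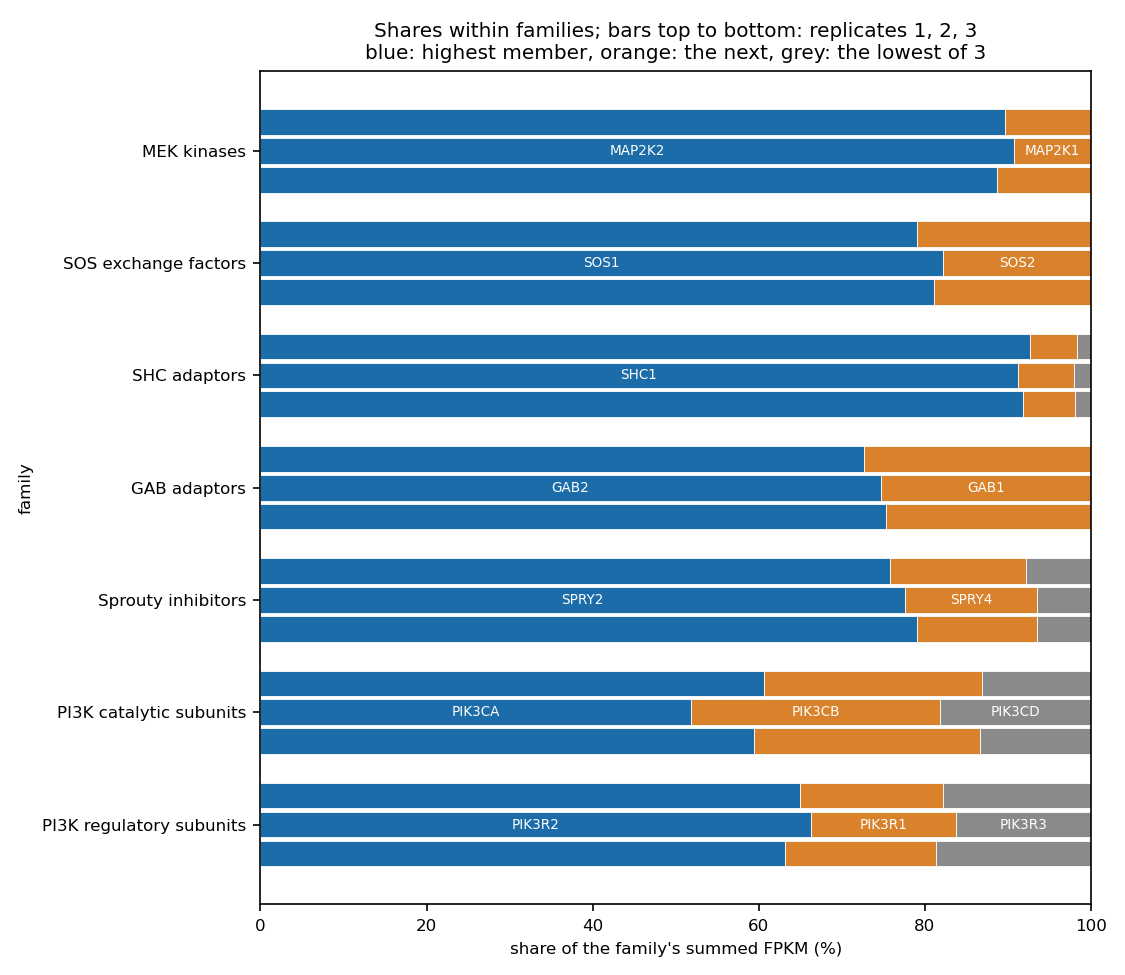
Share of each gene in the summed FPKM of its family (percent), with 1 bar per library. In every family the same gene leads in all 3 libraries, and that gene's mean share runs from 57.3% for PIK3CA to 91.9% for SHC1.

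The pair differences were larger than their spread in most families, but 3 libraries set a limit to the test. Of 26 pairs, 24 had 1 sign in all 3 libraries and an exact two-sided sign-flip p = 0.25, the smallest this design allows, or 0.271 after Benjamini-Hochberg adjustment over the pairs. None therefore passed a threshold of 0.05. The other pairs were NF1 with RASA1 and PIK3R3 with PIK3R1, which were given above.

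**Figure D3:**
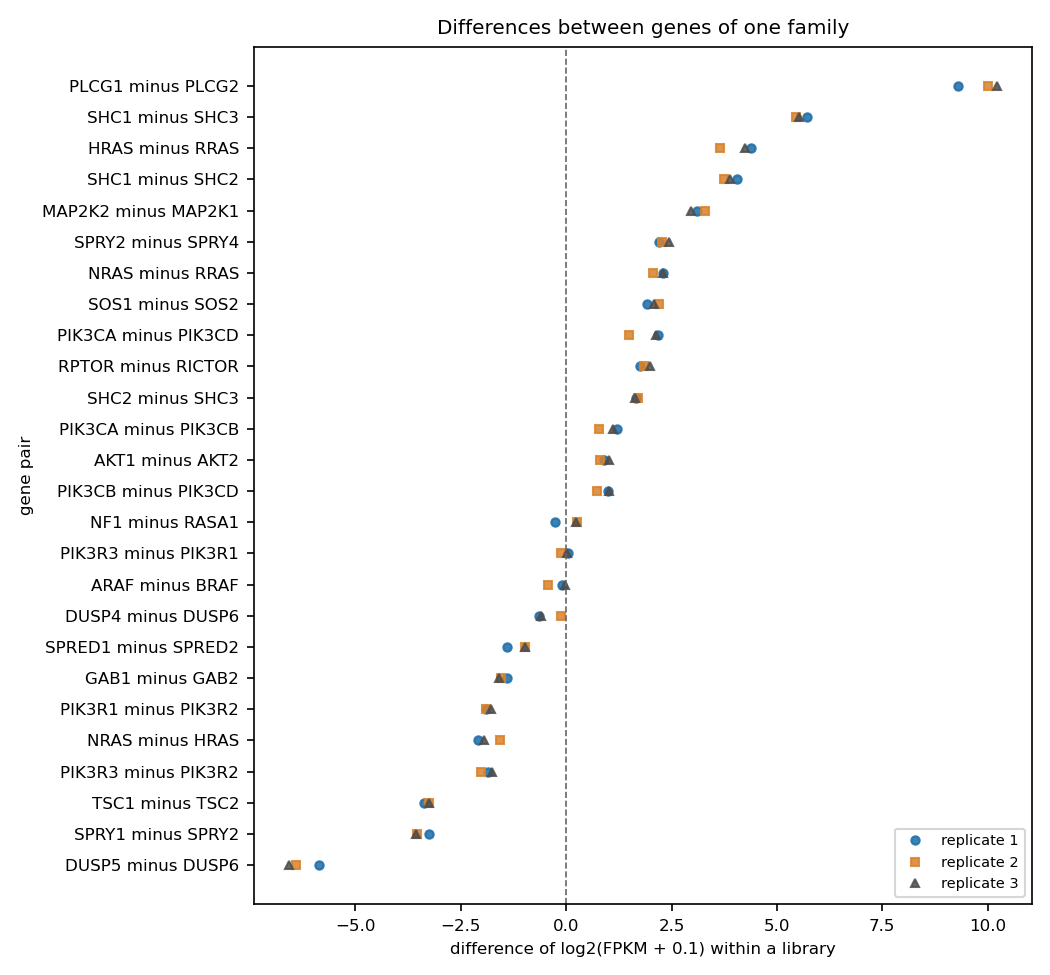
Difference of log2(FPKM + 0.1) between the genes of each of the 26 pairs, 1 point per library. Points of NF1 minus RASA1 and of PIK3R3 minus PIK3R1 fall on both sides of 0, and PLCG1 minus PLCG2 lies farthest from it.

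Beyond the members, 104 other genes of both pathways were taken by textbook role in 10 lists, also with earlier results known. They gave 77 called above 1 FPKM, 14 below, 7 neither and 6 listed at 0. Among all protein-coding genes tested 70.6% were called above and 24.6% below, shares that leave out genes listed at 0. The counts of this and the following lists are descriptions beside that background. The RAS-family GTPase genes RRAS2 (23.9 ± 1.82 FPKM) and MRAS (28.6 ± 1.24) were above. Of the kinases and scaffolds of the MAPK cascade 5 of 7 were above, led by PEBP1, an inhibitor of RAF (182 ± 8.38 FPKM). KSR2, a neuronal scaffold, was below (0.526 ± 0.0553) and CNKSR2, at 4.88, 1.11 and 1.77 FPKM, neither. All 9 ERK substrates were above, from the ETS factor ELK4 (4.48 ± 0.615 FPKM) to the ribosomal S6 kinase gene RPS6KA2 (27.1 ± 0.729).

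Exchange factors and GTPase activators other than SOS, NF1 and RASA1 were the most mixed list, with 6 of 13 above, 6 below and 1 neither. DAB2IP, a GTPase activator, was highest (22.1 ± 1.1 FPKM). RASGRF2 (0.386 FPKM), RASGRP3 (0.510), RASGRF1 (0.181), RASAL1 (0.147), RASGRP4 (0.101) and RASAL3 (0.077) were below, and RASGRP1 was neither. RASGRP1 had 1.49 FPKM in replicate 1 and 0.455 and 0.396 in the others, and once replicate 1 was removed it was called below (-1.07, limma adjusted p = 0.00885). RASGRF1 had 0.498 FPKM in replicate 2 and 0.023 in each of the others, and its call did not hold once replicate 1 (limma adjusted p = 0.104) or replicate 3 (0.103) was removed, with no filter on low values (0.0701) or with a pseudocount of 0.01 (0.0566). RASAL3 was listed at 0 in replicates 1 and 2, and its call did not hold once replicate 2 was removed (limma adjusted p = 0.0599). Among the other phosphatase and Sprouty genes 6 of 9 were above, led by DUSP16 (33.6 ± 1.53 FPKM), with DUSP2 (0.431 ± 0.144) and SPRY3 (0.318 ± 0.042) below and DUSP9 (1.24 ± 0.446) neither; DUSP2 was no longer called once replicate 2 was removed (limma adjusted p = 0.0706).

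Transcripts known to respond to ERK gave 7 of 11 above, 1 below, 2 neither and 1 listed at 0. The 7 included FOSL1, at 1.27 ± 0.149 FPKM, whose call lay near the threshold (limma adjusted p = 0.0478). The cyclin gene CCND1 was highest (337 ± 34.3 FPKM), followed by the ETS factor genes ETV5 (41.7 ± 6.37) and ETV4 (34.3 ± 1.94). The immediate-early genes were much lower: EGR1 stood at 2.56, 1.89 and 1.98 FPKM, and FOS (0.662 ± 0.33) and IER3 (0.744 ± 0.169) were neither. FOS was called below in TPM (-1.03, limma adjusted p = 0.0269) and once replicate 1 was removed (-0.94, 0.033), and IER3 in TPM (-0.82, limma adjusted p = 0.00544) and once replicate 2 was removed (-0.55, 0.042). PHLDA1 was below (0.078 ± 0.0131 FPKM), with values of 0.092, 0.076 and 0.066 FPKM. These lie under the counting floor for 1 kb in each library, though the gene has 8069 exonic bases. EPHA4 was listed at 0 in every library.

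On the PI3K side, 7 of 11 other PI3K genes and insulin receptor substrates were above, led by PIK3C3, the class III kinase of autophagy (74.2 ± 7.87 FPKM). The gamma-isoform genes PIK3CG, PIK3R5 and PIK3R6 and the substrate gene IRS4 were listed at 0. All 6 phosphatases listed as acting on the pathway were above, from INPP4B (1.25 ± 0.0532 FPKM) to INPPL1, the gene of the inositol phosphatase SHIP2 (67.4 ± 5.91). INPP4B lay so near 1 FPKM that its call did not hold once any 1 library was removed (limma adjusted p from 0.0586 to 0.126), and it fell below the level in TPM (-0.16, limma adjusted p = 0.136). Of 23 other AKT-mTOR genes 19 were above, led by the ribosomal protein gene RPS6, whose product S6 kinase phosphorylates (1973 ± 173). DEPTOR, an inhibitor of mTOR (0.372 ± 0.145 FPKM), PRR5L (0.39 ± 0.192) and SGK3 (0.777 ± 0.0828) were below. The call for PRR5L did not hold once replicate 1 (limma adjusted p = 0.0711) or replicate 2 (0.0559) was removed or with no filter on low values (0.0619), and that for SGK3 once any 1 library was (0.0727 to 0.124). FOXO1 (2.7, 0.447 and 0.372 FPKM) was neither, its high value being that of replicate 1, and once replicate 1 was removed it was called below (-1.11, limma adjusted p = 0.0094).

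Of 13 other phospholipase C and SRC-family genes 10 were above, with FYN, a SRC-family kinase of neurons and T cells, highest (112 ± 7.79 FPKM). LCK (0.0213 FPKM) was below, listed at 0 in replicates 1 and 2 and at 0.064 FPKM in replicate 3. FGR was listed at 0, and PLCE1 (0.997 ± 0.162) was neither, though called below in TPM (-0.45, limma adjusted p = 0.0229).

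**Figure D4:**
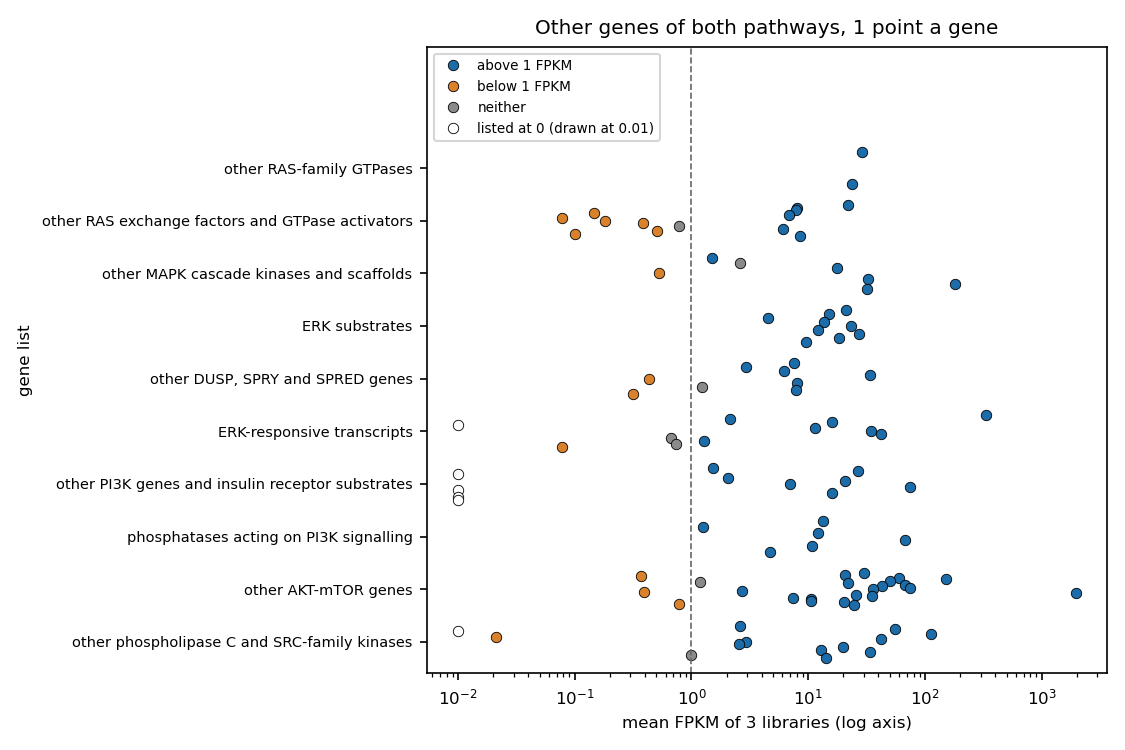
Mean FPKM of 104 other pathway genes in 10 lists (log axis), coloured by call against 1 FPKM, with genes listed at 0 drawn at 0.01. The lists of RAS-family GTPases, ERK substrates and phosphatases acting on PI3K signalling lie wholly above the line. The list of exchange factors and GTPase activators is split across it.

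Flask-to-flask spread of the members was small. The SD of log2(FPKM + 0.1) had a median of 0.10 over the 47 members, against 0.11 over 12219 protein-coding genes averaging 1 FPKM or more and 0.21 over all genes tested. DUSP6 (0.02), SPRY2 (0.02), AKT1 (0.03) and NRAS (0.03) varied least, and the low genes PLCG2 (0.41) and DUSP5 (0.38) most, followed by HRAS (0.30), PIK3CD (0.29) and DUSP4 (0.26). For 30 of 47 members the SD was under 10% of the mean.

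Replicate 2 was the library farthest from the other two for 25 of 47 members (53.2%), against 40.1% of the protein-coding genes averaging 1 FPKM or more. In TPM the order of those shares turned, to 40.4% against 45.6%, so the count depends on the scaling. HRAS was 1.41 times lower in replicate 2 than the mean of the other libraries, PIK3R3 1.32 times and RPS6KB1 1.3 times, while PIK3CD and DUSP4 were 1.4 and 1.37 times higher. Replicate 2 was thus low for some members and high for others. The deviation in replicate 2 had a Spearman rho of 0.30 with the length of the longest coding transcript over the 47 members and of 0.04 over 12143 protein-coding genes, both given as descriptions, since the points share the same 3 libraries.

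**Figure D5:**
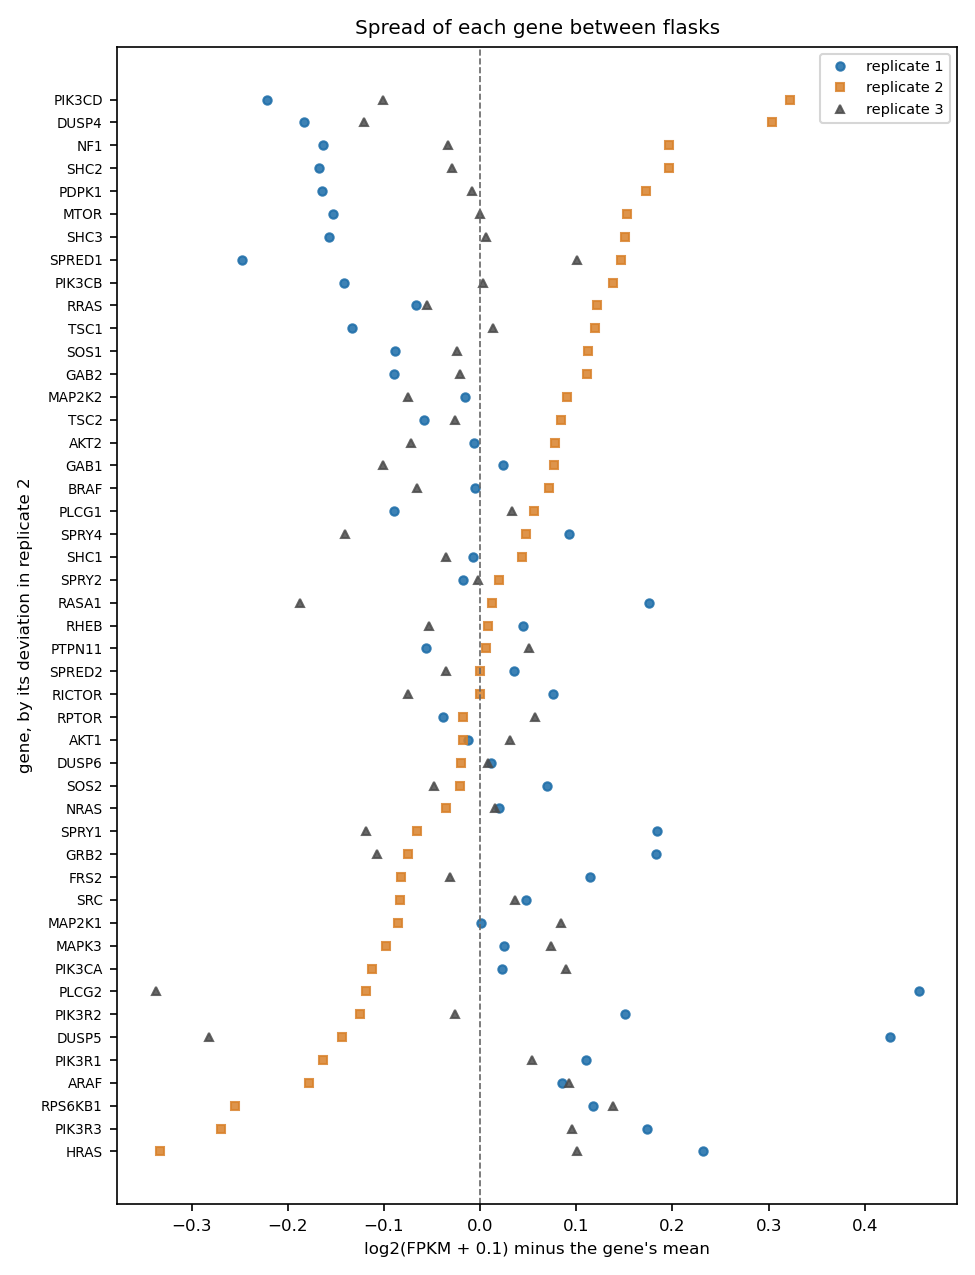
Deviation of log2(FPKM + 0.1) from each gene's mean in replicates 1, 2 and 3, genes ordered by their deviation in replicate 2. HRAS, PIK3R3 and RPS6KB1 are lowest in replicate 2 and PIK3CD and DUSP4 highest there, while DUSP6, SPRY2 and AKT1 stay close to 0 in every library.

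Some members share exonic bases with genes on the other strand. Strand handling during counting, not given in the sources used here, leaves their values uncertain. NDUFB2, at 140 ± 8.67 FPKM, overlaps 5.29% of the exonic bases of BRAF, RPL6, at 1883 ± 138 FPKM, overlaps 1.58% of those of PTPN11, and CLSTN1, at 47.6 ± 1.15 FPKM, overlaps 1.41% of those of PIK3CD. CCNH (42.1 ± 1.43 FPKM) overlaps 14.7% of RASA1, and PKD1 (57.6 ± 4.38 FPKM) 3.96% and NTHL1 (27.4 ± 0.508 FPKM) 2.05% of TSC2. SNAPC5 (20.5 ± 1.74 FPKM) overlaps 5.75% of MAP2K1, and SYN1 (12.3 ± 0.291 FPKM) 0.651% of ARAF. Partners on the other strand that are not named here were lower than their member. Larger overlaps involve lower partners: AC024909.2 (4.0 ± 0.393 FPKM) covers 40.5% of DUSP6, and KCNMB3 (1.09 ± 0.0976 FPKM) 35.8% of PIK3CA. For PDPK1, AC141586.3 (7.25 ± 0.0515 FPKM) covers 16.8% and the copy PDPK2P was listed at 1.91 ± 0.159 FPKM. Other named pseudogene copies of members were at most 0.272 FPKM (RHEBP2). On the same strand AC007192.1 (0.992 ± 0.296 FPKM) shares 87.2% of the exonic bases of PIK3R2, so the division of reads between them is uncertain.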

How the data were processed

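The submitters' processing notes list hg38, TopHat2 2.1.1, Cufflinks 2.2.1, FastQC 0.10.1 and bcl2fastq, with annotation and strand setting not given in the sources used here. For each sample the authors deposited 1 FPKM value per gene, from libraries made with 500 ng of RNA and read as 50-base single reads, per the labels' protocols. Here 57046 of 60660 identifiers matched GENCODE 29 (GRCh38), and a shared name took the identifier with the highest mean. Genes above 0 in at least 1 library, with values in at least 2, were tested on log2(FPKM + 0.1) against 1 FPKM (limma 3.58.1, R 4.3.3, two-sided, adjusted p under 0.05), a scale that understates distances of low genes. Pairs were tested by exact sign flips over libraries. The level test was also run on simulated data with normal noise, moving genes taken from above the level. The outcome of that run is not given here, and it does not cover genes with values of 0.

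Depth was estimated from single-transcript genes of at least 600 bases with an assumed fragment of 200 bases. At the chosen depths 97.4%, 97.2% and 96.0% of low values lay within 0.1 of a whole read. The depths were chosen to fit these same values, so the shares are no independent check. The replicates are separate flasks, so the p-values are based on the spread between cultures and libraries of 1 line.

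Members, lists and pairs were chosen with earlier results of these data known. Named genes were every member, the highest, lowest and below-level genes of each list, and exonic overlaps on the other strand. Genes called neither, ETV4, ETV5, EGR1 and FOSL1, family shares, summed ratios and promoter windows were added after values were seen. Some genes of both pathways are not reported here and are in no list or family count. Promoter windows are the first listed RefSeq start of each gene.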

Additional observations from a re-analysis of the deposited data

How the results depend on the processing

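Of the 47 members, 45 were called above 1 FPKM under every alternative tried except a level of 5 FPKM (41). The 1 member called below became 2 in TPM and between 1 and 2 when a library was left out (2 without replicate 1), with DUSP5 as the second in each case, and 3 at 5 FPKM. Other pathway genes called below numbered 6 at a level of 0.5 FPKM and 31 at 5 FPKM, in place of 14. Apart from changes of the level, 421 of 423 member results kept side and call, the exceptions being DUSP5 in TPM and without replicate 1.

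A change of level turns the sign of genes that lie between the levels, by construction. At 5 FPKM the log2 distance was -0.47 for SPRY1, -0.14 for RICTOR, -1.18 for CNKSR2, -1.98 for DUSP9, -1.20 for EGR1, -0.16 for ELK4 and -1.92 for INPP4B. At 0.5 FPKM it was 0.41 for DUSP5, 0.26 for FOS, 0.58 for FOXO1, 0.47 for IER3, 0.057 for KSR2, 0.86 for PLCE1, 0.34 for RASGRP1, 0.0024 for RASGRP3 and 0.54 for SGK3. In TPM, which lowers every gene, it was -0.21 for DUSP9 and -0.16 for INPP4B. With a library left out, DUSP9 ran from -0.019 (without replicate 2) to 0.43 (without replicate 1), FOXO1 from -1.11 (without replicate 1) to 0.17 (without replicate 3) and PLCE1 from -0.10 (without replicate 1) to 0.11 (without replicate 3). Of these values with a library left out, FOXO1 without replicate 1 was called below (limma adjusted p = 0.0094) and the others were not called. The cause was not tested.

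Of 156 pair differences under alternatives 153 kept their sign; NF1 minus RASA1 ran from -0.016 (without replicate 2) to 0.25 (without replicate 1) and was -0.00063 without replicate 3, and PIK3R3 minus PIK3R1 ran from -0.041 (without replicate 1) to 0.044 (without replicate 2). The members' median SD between flasks ran from 0.069 (without replicate 2) to 0.13 (without replicate 3). No paired analysis was possible because the series has 1 group. By estimated reads per kb PLCG2 was the lowest member, at 4.01, 2.63 and 2.83 in replicates 1, 2 and 3, though over a long transcript.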
